A study of Mus musculus with 18 samples.

Results

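This comparison set the hippocampus of 5xFAD mice that had received extracellular vesicles against the hippocampus of wildtype mice that had received PBS, and it asks which genes differed from wildtype after the course of vesicles. Its members are 6 of the 18 samples of the series, 3 in each group, chosen by their columns in the deposited table. They were compared over the 13305 of 18683 listed genes that had at least 0.5 FPKM (fragments scaled by gene length and library size) in at least 3 of the 9 hippocampus samples. The vesicle group was male 5xFAD mice injected into a vein with vesicles, the membrane-bound particles that cells release, isolated from human breast milk (5xFAD EV). Another group of male 5xFAD mice of the same age was injected with PBS (5xFAD PBS), and its 3 hippocampus samples are given beside the comparison. Wildtype mice were male C57BL/6J animals injected with PBS. All groups were dosed every 3 days, 10 times in all, from 5 to 6 months of age, went through behavioural tests and were perfused with cold PBS before tissue was taken. No vesicle-treated wildtype group was analysed here, so the comparison holds genotype and treatment together. The replicate samples are numbered 1 to 3 in the labels, which do not say that they are separate mice, so the error behind each p-value is that of these samples and may be no more than technical.

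The 5xFAD strain carries mutated human APP among its transgenes, under a promoter of the mouse Thy1 gene that is active in neurons, and amyloid plaques build up in hippocampus and cortex. Microglia, the resident phagocytes of the brain, gather at plaques and take up a state named disease-associated microglia, in which the receptor Trem2 and its adaptor Tyrobp signal and genes of phagocytosis, lysosomes and lipid metabolism are expressed. Astrocytes near plaques express filament and acute phase genes, interferons raise antiviral and antigen presentation genes, and neurons express immediate early genes soon after strong activity.

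Reads in listed genes ran from 26435439 (5xFAD EV replicate 3) to 36899325 (5xFAD EV replicate 2). Regional markers followed the tissue labels: summed over 20 hippocampal neuron genes, the 9 hippocampus samples had 523 to 642 FPKM and the 9 prefrontal cortex samples 276 to 422, and over 11 measured genes of neocortical layers the sums were 60.7 to 103 in hippocampus and 136 to 209 in prefrontal cortex. 5xFAD EV replicate 3 stood apart from the other vesicle samples. It was the highest of the 3 for 220 of the 257 genes called higher below, and its summed choroid plexus genes were at 267 FPKM, against 6650 in replicate 1 and 2674 in replicate 2. Counts of 2 or more called list members that move by more than 1.5 times when 1 hippocampus sample is left out are given below with the samples that move them.

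Of the 13305 genes, 257 (1.93%) were higher in 5xFAD EV than in wildtype hippocampus and 23 (0.173%) were lower, at a Benjamini-Hochberg adjusted p under 0.05 from limma, which is what called means from here on. Genes called higher made up 91.8% of the 280 called. Fold changes are differences of log2(FPKM + 0.5), 5xFAD EV minus wildtype unless another pair is named. Their median was 1.11 over the genes called higher and -0.67 over those called lower. Changes of more than 2-fold were found for 160 genes called higher and 5 called lower, and 23 of the genes called higher were beyond 4-fold. In all 280 called genes the vesicle and wildtype samples did not overlap, as was so for 2472 (18.6%) of the genes tested. Without 5xFAD EV replicate 3 the count was 278, of which 214 were among the 280. Counts were 166, 159 and 173 without wildtype replicate 1, 2 or 3. A set of 126 genes called higher and 5 called lower was called in each of the 6 fits that left out 1 vesicle or wildtype sample. The number of these fits is given below for some genes only, and a gene without it was not always called in all 6.

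**Figure D1:**
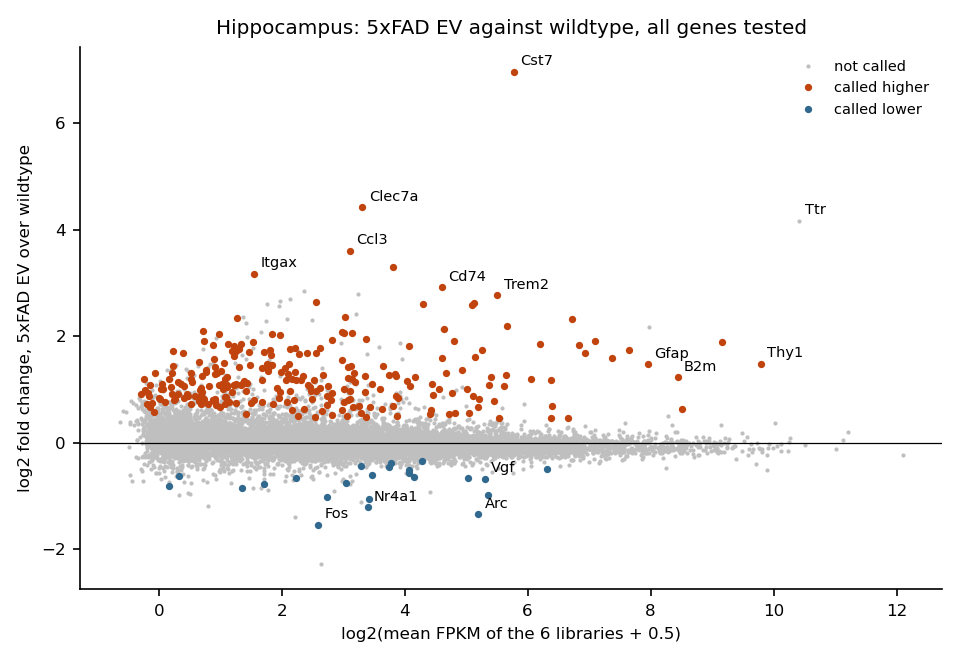
All 13305 genes tested, with the log2 of the mean FPKM (plus 0.5) of the 3 5xFAD EV and 3 wildtype hippocampus samples on the horizontal axis and the log2 fold change of 5xFAD EV over wildtype on the vertical axis. Orange points are the 257 genes called higher, blue points the 23 called lower and grey points the rest. The rises reach 6.97 (Cst7) and the falls -1.54 (Fos), and Ttr, a choroid plexus gene, lies at 4.17 without a call.

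The transgenes were followed only through mouse genes, since human sequences were not analysed here. Thy1, a surface glycoprotein of neurons whose promoter drives the transgenes, stood at 1218, 1287 and 1415 FPKM in 5xFAD EV samples, at 1330, 1293 and 1075 in 5xFAD PBS samples and at 432, 459 and 506 in wildtype samples. All 5xFAD samples were above all wildtype samples, and Thy1 rose in 5xFAD EV by 1.49 (SE 0.13, adjusted p = 0.000516). Mouse App, the amyloid precursor, was at 98.5, 102 and 92.3 FPKM in 5xFAD EV and at 100.1, 102 and 102 in wildtype samples (log2 fold change -0.06, SE 0.07). Its samples overlapped between the groups. The list of 15 genes for amyloid precursor processing and degradation also holds Thy1, which is not such a gene and was the only member called. The others had no call and ran from -0.38 for the amyloid-degrading protease Mme (adjusted p = 0.336) to 0.33 for the sheddase Adam17.

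The largest rises were genes of disease-associated microglia. Of 32 listed genes 31 were tested, 23 were called higher and none lower, with a median log2 fold change of 1.37, beside 0.002 over all genes tested. Cst7, which encodes the protease inhibitor cystatin F, had 72.4, 68.2 and 184 FPKM in 5xFAD EV samples, against 0.218, 0.424 and 0.201 in wildtype samples (6.97, SE 0.32, adjusted p = 2.15e-05). Clec7a, a receptor for beta-glucans, had 13.8, 12.5 and 29.3 FPKM in 5xFAD EV and 0.328, 0.454 and 0.211 in wildtype samples (4.42, SE 0.28, adjusted p = 0.000191). Itgax, the integrin subunit CD11c, had 3.96, 3.22 and 7.29 FPKM in 5xFAD EV and 0.0496, 0.0965 and 0.0328 in wildtype samples (3.18, SE 0.32, adjusted p = 0.00121). In each of these genes replicate 3 was the highest vesicle sample and all vesicle samples were far above the wildtype samples. In bulk tissue, fewer cells of a type and less RNA per cell cannot be told apart, and the same holds for more of either.

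The chemokines Ccl3 (3.61), Ccl6 (3.31) and Ccl4 (2.35), the lysosomal glycoprotein Cd68 (2.63), the surface peptide Cd52 (2.60), the toll-like receptor relative Cd180 (2.65) and lysozyme, Lyz2 (2.20), also rose. Ch25h, which makes 25-hydroxycholesterol, had 2.06, 1.51 and 4.60 FPKM in 5xFAD EV and 0.0673, 0.326 and 0.312 in wildtype samples (2.04, adjusted p = 0.00763). Gpnmb, a membrane glycoprotein of phagocytes under lysosomal load, rose by 1.69 (adjusted p = 0.0442) and lipoprotein lipase, Lpl, by 1.26 (adjusted p = 0.0211), but Gpnmb was called in 1 and Lpl in 2 of the 6 fits without a sample. The smallest called changes were in Csf1 (0.68), Ctsb (0.63, called in 1 of those 6 fits) and Hif1a (0.55). Members without a call included some of the state's best known genes. Apoe, the main lipid carrier of the brain, had 1126, 1003 and 1377 FPKM in 5xFAD EV, 1327, 1559 and 1347 in 5xFAD PBS and 738, 884 and 1124 in wildtype samples (0.36, adjusted p = 0.474). Spp1, osteopontin, had 11.4, 14.6 and 40.5 FPKM in 5xFAD EV, 46.1, 33.4 and 42.2 in 5xFAD PBS and 7.03, 11.9 and 19.9 in wildtype samples (0.65, adjusted p = 0.642). In both genes vesicle and wildtype samples overlapped, through vesicle replicate 2 in Apoe and through vesicle replicates 1 and 2 in Spp1. Axl (0.72, adjusted p = 0.0588) and Igf1 (0.75, adjusted p = 0.0628) did not overlap with wildtype and narrowly missed the threshold. Without 5xFAD EV replicate 3, 21 of the 31 were called higher, with a median of 1.26.

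Trem2, the lipid-sensing receptor of microglia, had 63.5, 61.4 and 113 FPKM in 5xFAD EV, 88.6, 77.9 and 76.7 in 5xFAD PBS and 9.20, 11.7 and 11.3 in wildtype samples (2.78, SE 0.21, adjusted p = 0.000249). Tyrobp, the adaptor that carries its signal, had 130, 128 and 271 FPKM in 5xFAD EV and 26.9, 31.8 and 40.3 in wildtype samples (2.33, SE 0.27, adjusted p = 0.00208). The receptor and its adaptor were thus above every wildtype sample in every vesicle sample. Of 11 tested genes of Trem2 signalling 9 were called higher, median 0.98, among them the phosphatase Ptpn6 (1.68), the adaptor Pik3ap1 (1.11), the lipid phosphatase Inpp5d (0.96) and the phospholipase Plcg2 (0.74, called in none of the 6 fits without a sample). Grb2, an adaptor of most cells, was at -0.02, and 4 of the 11 were called without wildtype replicate 1 or without wildtype replicate 3.

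Genes of homeostatic microglia, which mark the resting state and are often reported lower at plaques, were higher here. Of 15 tested, 11 were called higher and none lower, median 1.01. The count was 6 without wildtype replicate 1 and 7 without wildtype replicate 2 or 3. Csf1r, the receptor that keeps microglia alive, had 53.5, 52.1 and 71.1 FPKM in 5xFAD EV and 22.6, 25.5 and 25.6 in wildtype samples (1.23, SE 0.12, adjusted p = 0.00121). Siglech (1.44), Olfml3 (1.36), Gpr34 (1.34), the fractalkine receptor Cx3cr1 (1.31) and the purine receptor P2ry12 (0.94) were also called. P2ry12 was called in 2 of the 6 fits without a vesicle or wildtype sample. Tmem119, a microglial surface protein, had 15.03, 13.6 and 22.6 FPKM in 5xFAD EV and 11.96, 13.5 and 14.5 in wildtype samples (0.32, adjusted p = 0.497). Sall1, a transcription factor of microglial identity, was at 0.49 (adjusted p = 0.133). These genes mark the cells rather than the plaque state, and their summed level was 475, 446 and 753 FPKM in 5xFAD EV, 621, 529 and 544 in 5xFAD PBS and 206, 238 and 223 in wildtype samples; how far this level contributes to the other microglial results was not tested.

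**Figure D2:**
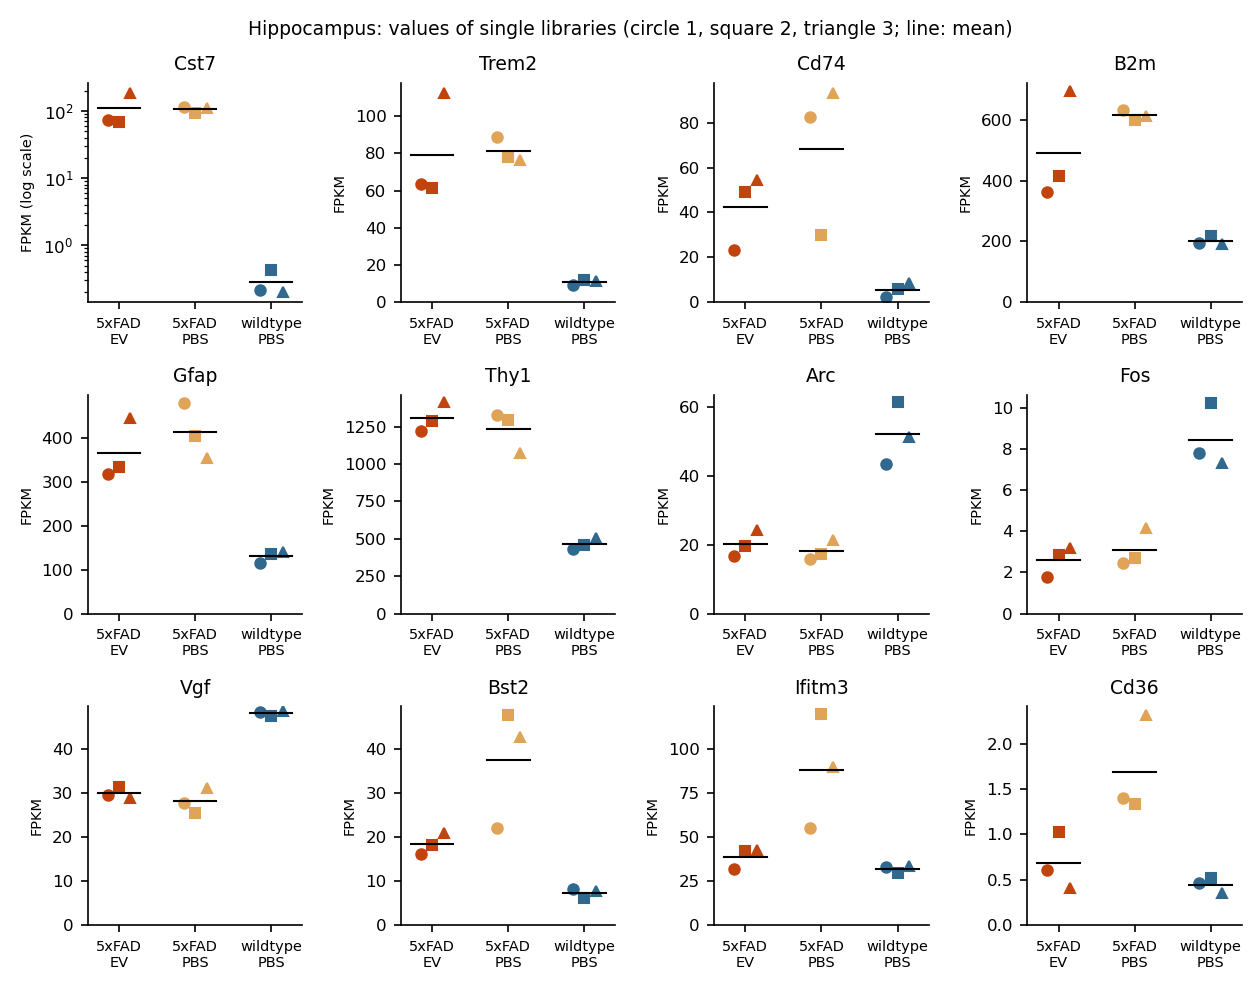
FPKM of 12 genes in each hippocampus sample, in 5xFAD EV, 5xFAD PBS and wildtype from left to right, with symbols for replicates 1, 2 and 3 and a line at the mean; only Cst7 has a log axis. The 3 vesicle samples lie above the 3 wildtype samples for Cst7, Trem2, Cd74, B2m, Gfap, Thy1 and Bst2 and below them for Arc, Fos and Vgf, and they overlap with them for Ifitm3 and Cd36.

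Complement genes had 7 of 12 tested members called higher and none lower, median 1.41, and 7 without 5xFAD EV replicate 3. C1qa, a chain of the initiating complex C1q, had 171, 168 and 312 FPKM in 5xFAD EV and 48.6, 60.9 and 56.6 in wildtype samples (1.91, SE 0.21, adjusted p = 0.00186), and C1qb (1.69) and C1qc (1.83) rose as well. C4b, a complement component that astrocytes express near plaques, had 24.4, 27.1 and 25.9 FPKM in 5xFAD EV and 6.58, 7.11 and 7.25 in wildtype samples (1.81, SE 0.15, adjusted p = 0.000516). The vesicle samples lay close together for C4b, with replicate 3 between the others. The receptor C3ar1 (1.85) and the integrin chains Itgb2 (1.93) and Itgam (1.13) rose, while C3, the central component, was at 1.55, 0.963 and 0.843 FPKM in 5xFAD EV and 0.724, 0.835 and 0.594 in wildtype samples (0.39, adjusted p = 0.45). Among 6 Fc receptors, which bind antibody, 4 were called higher (median 1.52), led by the inhibitory receptor Fcgr2b with 10.0, 10.4 and 16.6 FPKM in 5xFAD EV and 2.18, 2.81 and 2.46 in wildtype samples (2.08, SE 0.18, adjusted p = 0.000516). Fcer1g (1.60), the chain through which activating Fc receptors signal, Fcgr3 (1.44) and Fcgr1 (1.18) followed. Fcgr1 was called in 2 of the 6 fits without a vesicle or wildtype sample. Fcgr4 missed the threshold at 1.75 (adjusted p = 0.0851).

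Some sensors of microbial patterns rose. Of 16 tested toll-like receptor and cytokine genes 7 were called higher, median 0.52, and 4 without wildtype replicate 1. Tlr2, a receptor for bacterial lipoproteins, had 2.01, 1.93 and 3.18 FPKM in 5xFAD EV and 0.194, 0.334 and 0.358 in wildtype samples (1.83, SE 0.17, adjusted p = 0.000765), and the nucleic acid receptors Tlr7 (1.32) and Tlr13 (1.23) and the interleukin-10 receptor chain Il10ra (1.13) rose too. Il1b, the main inflammasome cytokine, was at 0.368, 0.24 and 0.781 FPKM in 5xFAD EV and 0.204, 0.514 and 0.377 in wildtype samples (0.13, adjusted p = 0.889). Tnf, Il6 and Nlrp3 were under the level at which genes were tested. Of 13 tested chemokine genes outside the microglial lists 2 were called: Cxcl10, an interferon-induced chemokine (1.74, adjusted p = 0.0366, called in 1 of the 6 fits without a sample), and Cxcl16 (1.43, adjusted p = 0.0108). The count was 1 without vesicle replicate 2 or 3, 5xFAD PBS replicate 1 or any 1 of the wildtype samples. Ccl12 had 3.18, 6.93 and 17.3 FPKM in 5xFAD EV and 1.32, 1.30 and 0.741 in wildtype samples (2.30, adjusted p = 0.0644), a wide spread that ran with replicate 3.

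A few further groups of myeloid genes were drawn up after the values were seen, and their counts are a description only. Of 8 genes of the phagocyte NADPH oxidase, which makes superoxide, 6 were called higher, among them the proton channel Hvcn1 (1.70), the subunits Ncf1 (1.18), Cyba (1.16) and Cybb (1.13) and the GTPase Rac2 (1.08), whereas Rac1, which most cells express, was at 0.02. Of 11 tested myeloid transcription factors 7 were called, with Irf8 at 4.76, 5.79 and 9.60 FPKM in 5xFAD EV and 1.14, 1.94 and 1.55 in wildtype samples (1.78, adjusted p = 0.00373), and with Irf5 (1.16) and Spi1, the lineage factor PU.1 (1.04). That count depended on single samples: it was 3, 4 and 5 without vesicle replicate 1, 2 or 3, 4 without 5xFAD PBS replicate 3, and 1, 2 and 2 without wildtype replicate 1, 2 or 3, and Irf5 was called in 3 and Spi1 in 2 of the 6 fits without a vesicle or wildtype sample. All 4 tested receptors of the SLAM family were called: Slamf9 (2.04), Ly9 (1.91), Cd48 (1.76) and Cd84 (1.73). Immune checkpoint genes had 7 of 8 called. Lag3 had 9.61, 10.3 and 17.9 FPKM in 5xFAD EV and 2.60, 2.96 and 2.07 in wildtype samples (2.06, adjusted p = 0.00249). Pdcd1, the receptor PD-1, had 1.11, 1.21 and 1.58 FPKM in 5xFAD EV and 0.0317, 0.0577 and 0.044 in wildtype samples (1.72, adjusted p = 0.000516). The lymphocyte genes Cd3e, Cd8a and Cd79a were too low to be tested, at 0.0258 to 0.340 FPKM in 5xFAD EV and 0 to 0.481 FPKM in wildtype samples, and their part in these values was not tested. Of 17 cytokine and growth factor receptors 8 were called, led by Csf3r (1.66), the receptor for granulocyte colony-stimulating factor, and Tgfbr2 (1.19). The count of these receptors was 5 without vesicle replicate 1 or 3, 5xFAD PBS replicate 1 or wildtype replicate 3, and 4 without wildtype replicate 1 or 2. The largest rises outside every list were Mpeg1, a pore-forming protein of phagocytes (2.59), Ly86, the partner of Cd180 (2.14, named after its value was seen), and Hcar2, a receptor for hydroxybutyrate (2.11, likewise named afterwards). Hcar2 was called in 2 of the 6 fits without a vesicle or wildtype sample.

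**Figure D3:**
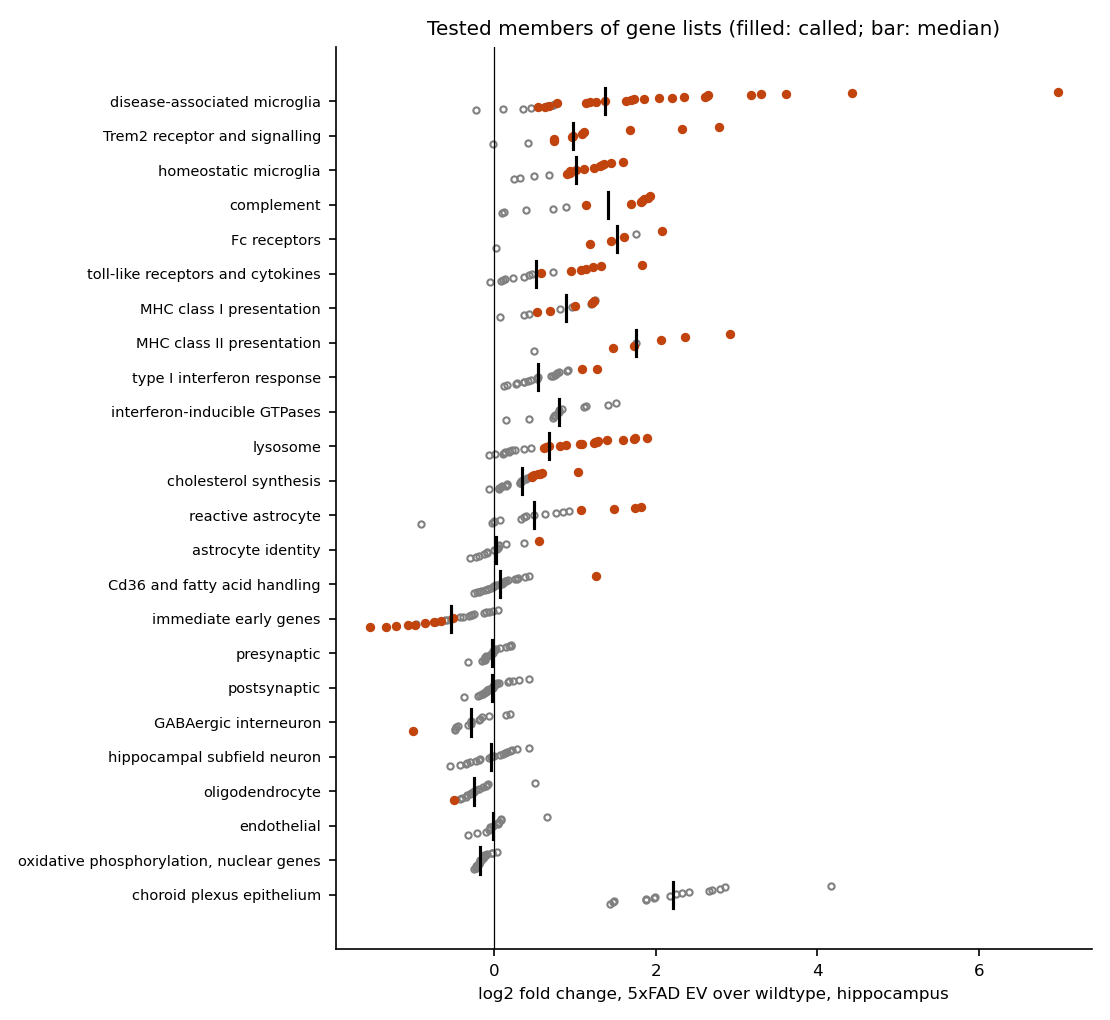
Log2 fold change of 5xFAD EV over wildtype hippocampus for the tested members of 24 gene lists, with filled points for called genes, open points for the rest and a bar at the median of each list. Microglial, complement, Fc receptor and lysosome lists lie to the right, immediate early genes to the left, synaptic and hippocampal neuron lists about 0, and the choroid plexus list at a median of 2.21 with no filled point.

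Many lysosomal genes rose. Of 27 tested, 16 were called higher and none lower, median 0.67, with 15 called without 5xFAD EV replicate 3. Ctsd, the aspartyl protease cathepsin D, had 800, 728 and 1176 FPKM in 5xFAD EV and 212, 238 and 264 in wildtype samples (1.89, SE 0.17, adjusted p = 0.00073). Ctss, a cathepsin of microglia, had 244, 248 and 436 FPKM in 5xFAD EV and 87.6, 95.9 and 84.0 in wildtype samples (1.73, SE 0.20, adjusted p = 0.00208). Laptm5, a lysosomal membrane protein of blood lineage cells (1.74), Gusb (1.39), Man2b1 (1.29) and Grn, progranulin (1.27), also rose. Psap, the precursor of the saposins, had 806, 731 and 747 FPKM in 5xFAD EV and 623, 674 and 711 in wildtype samples (0.19, adjusted p = 0.557), and Lamp1, found in the lysosomes of all cells, was at 0.19 (adjusted p = 0.57).

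Part of the cholesterol pathway rose. Of 24 tested genes of cholesterol synthesis and uptake 7 were called higher, median 0.35. The count was 2 without vesicle replicate 2, wildtype replicate 1 or wildtype replicate 3, 3 without wildtype replicate 2, and 4 without vesicle replicate 3 or 5xFAD PBS replicate 3. Sqle, squalene epoxidase, had 31.1, 35.1 and 33.5 FPKM in 5xFAD EV and 23.2, 21.5 and 22.3 in wildtype samples (0.56, SE 0.07, adjusted p = 0.00392), and Insig1 (0.55), Stard4 (0.59) and Hmgcs1 (0.47) were called at higher adjusted p (0.0128 to 0.0417). In Sqle replicate 3 was not the highest vesicle sample. Stard4 and Hmgcs1 were each called in 1 of the 6 fits without a vesicle or wildtype sample. Among 11 genes of lipid efflux 1 was called higher, and the exporter Abca1 was at 0.56 (adjusted p = 0.0544).

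Cd36, the fatty acid and scavenger receptor that the title of the study names, had 0.612, 1.03 and 0.404 FPKM in 5xFAD EV, 1.41, 1.33 and 2.32 in 5xFAD PBS and 0.462, 0.519 and 0.358 in wildtype samples. Vesicle and wildtype samples overlapped (0.29, SE 0.22, adjusted p = 0.675). The 5xFAD PBS samples were all above both other groups, and 5xFAD PBS against wildtype gave 1.18 (adjusted p = 0.0152), while 5xFAD EV against 5xFAD PBS gave -0.89 (SE 0.22, adjusted p = 0.867). The reads are those of mouse brain RNA, and Cd36 protein was not measured. Of 25 genes of fatty acid handling only Lpl was called, median 0.07, and it was not called without any 1 of the vesicle samples or wildtype replicate 2.

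Antigen presentation genes rose in part. Of 12 tested MHC class I genes 5 were called higher, median 0.89, with 2 called without vesicle replicate 2 or 3 or wildtype replicate 2, and 1 without wildtype replicate 1 or 3. B2m, the light chain of class I, had 363, 416 and 696 FPKM in 5xFAD EV, 634, 600 and 614 in 5xFAD PBS and 195, 217 and 192 in wildtype samples (1.23, SE 0.20, adjusted p = 0.0128). H2-D1 (1.20) and H2-K1 (adjusted p = 0.0238), classical heavy chains, and Tapbp, which helps load peptides (0.69), were also called. H2-K1 and Tapbp were each called in 1 of the 6 fits without a vesicle or wildtype sample. The peptide transporter Tap1 was at 1.24 (adjusted p = 0.0526) and the immunoproteasome subunit Psmb8 at 1.20 (adjusted p = 0.075). Of 7 tested MHC class II genes 5 were called higher, median 1.75, with 2 called without vesicle replicate 2 or 3 or wildtype replicate 1 or 2. The protease Ctss, counted above with the lysosomal genes, is among the 5 and was called in all 6 fits without a vesicle or wildtype sample. Cd74, the invariant chain, had 23.1, 49.0 and 54.7 FPKM in 5xFAD EV, 82.6, 29.8 and 93.3 in 5xFAD PBS and 2.17, 5.69 and 8.54 in wildtype samples (2.92, SE 0.54, adjusted p = 0.022). H2-Ab1 had 7.81, 13.1 and 18.4 FPKM in 5xFAD EV, 17.8, 10.4 and 32.0 in 5xFAD PBS and 1.13, 2.15 and 3.16 in wildtype samples (2.36, SE 0.43, adjusted p = 0.0216). H2-Aa, a class II chain, rose by 2.07 (adjusted p = 0.0396) and was called in 2 of the 6 fits without a vesicle or wildtype sample. Samples within each group differed by more than 2-fold for Cd74 and H2-Ab1, and neither was called without 5xFAD EV replicate 2 or 3 or wildtype replicate 1 or 2. Near-identical H2 genes share reads, so values are uncertain between members of the family.

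Few interferon-stimulated genes were called. Of 21 tested type I interferon genes 2 were called higher, median 0.54, and all 21 changes were above 0. The count was 1 without vesicle replicate 2 or 3 and without any 1 of the wildtype samples. Bst2, the antiviral protein tetherin, had 16.2, 18.2 and 20.8 FPKM in 5xFAD EV, 22.1, 47.6 and 42.6 in 5xFAD PBS and 8.08, 6.21 and 7.796 in wildtype samples (1.27, SE 0.25, adjusted p = 0.0291, called in none of the 6 fits without a sample). Trim30a, an interferon-induced regulator, had 1.63, 2.53 and 2.41 FPKM in 5xFAD EV, 3.25, 3.56 and 3.47 in 5xFAD PBS and 0.937, 0.782 and 0.561 in wildtype samples (1.09, SE 0.16, adjusted p = 0.00763). For both genes the vesicle samples lay between the other groups and overlapped with neither. Ifitm3, which blocks viral entry, had 32.1, 41.9 and 42.8 FPKM in 5xFAD EV, 55.1, 120 and 90.1 in 5xFAD PBS and 32.9, 29.4 and 33.6 in wildtype samples (0.27, adjusted p = 0.729). Ifit3 had 7.63, 16.0 and 15.4 FPKM in 5xFAD EV, 16.8, 25.7 and 27.5 in 5xFAD PBS and 8.13, 6.23 and 4.98 in wildtype samples (0.91, adjusted p = 0.215). Vesicle replicate 1 was the lowest vesicle sample in each of these 4 genes. None of 13 interferon-inducible GTPases was called (1 without vesicle replicate 1), with a median of 0.81 and a range of 0.14 (Gbp4) to 1.51 (Iigp1), and in Igtp the vesicle samples had 3.73, 7.31 and 16.0 FPKM and the wildtype samples 3.09, 2.92 and 1.86 (1.41, adjusted p = 0.364).

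The same lists in 5xFAD PBS against the same wildtype samples, a comparison in which 557 genes (4.19%) were called higher and 54 (0.406%) lower, had 12 of 21 type I interferon genes called higher with a median of 1.36, 4 of 13 GTPases with 1.44, 9 of 12 MHC class I genes with 1.34 and 6 of 7 class II genes with 2.45. Disease-associated microglia genes there had 27 of 31 called and a median of 1.57. Both comparisons share the wildtype samples, so the values are set side by side only. The direct test of 5xFAD EV against 5xFAD PBS called no gene (0%) of 13305, with a smallest adjusted p of 0.867 in limma. Voom on the recovered reads called no gene either. At an unadjusted p under 0.05 limma had 519 genes, 444 of them lower in 5xFAD EV. The 519 are a smaller share of the genes tested than the 0.05 that no difference between the groups would give. In that test the list medians were -0.67 for type I interferon genes, -0.54 for GTPases, -0.36 for class I, -0.53 for class II and -0.11 for disease-associated microglia, beside -0.02 over all genes tested. Markers of other cell types moved as well, with medians of -1.03 for choroid plexus, -0.93 for meningeal fibroblast and -0.70 for border-associated macrophage genes. The 4 tested haemoglobin and red cell genes went the other way, with a median of 1.67. The part of these cell types in the interferon values was not tested. The direct test's lack of calls does not show that the 5xFAD groups were alike, and it shows no difference between them either. Ifitm3 stood at -1.11 (SE 0.24) and Bst2 at -0.94 (SE 0.25, adjusted p = 0.867 in limma), and neither was called.

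**Figure D4:**
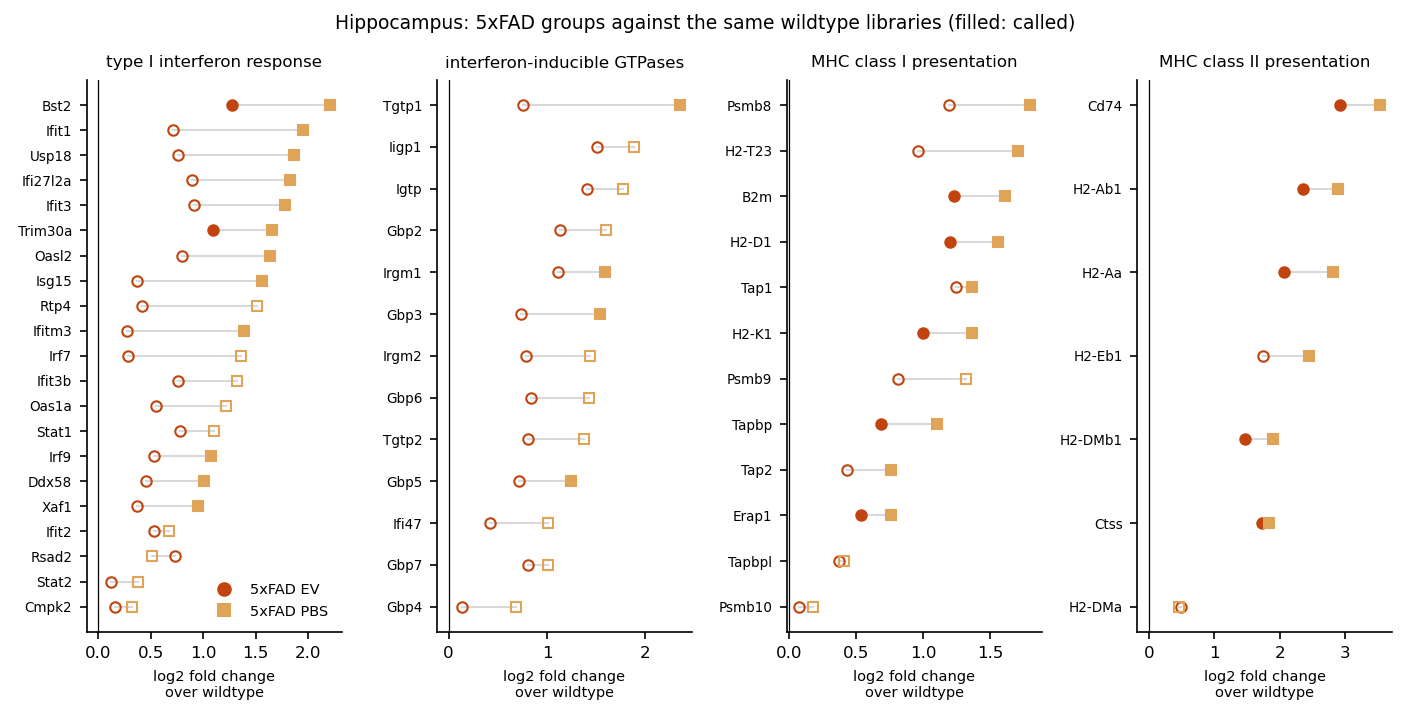
Log2 fold changes over the same 3 wildtype hippocampus samples for tested interferon and antigen presentation genes, one gene a row, with circles for 5xFAD EV and squares for 5xFAD PBS, filled where called. In the type I interferon panel 2 circles and 12 squares are filled, and in the MHC class II panel 5 circles and 6 squares.

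Promoters of these genes are shown because interferon acts on them through a short DNA element, the interferon-stimulated response element. The element was searched on both strands as GAAA, a pair of any bases, then GAAA, in RefSeq promoter windows of mouse build GRCm38.p6, from 250 bases before to 50 after each gene's start. It lay in the windows of 11 of 17 type I interferon genes with a window (64.7%), 9 of 10 GTPases (90%) and 3 of 10 class I genes (30%). It also lay in 4 of 19 immediate early genes (21.1%), against 1079 of all 27025 genes (3.99%). The 250 bases before the start are printed 5′ to 3′ on the gene's strand, with matches in capitals, for Bst2, Trim30a and B2m, which were called, and for Ifit3, which was not.
Bst2, chr8:71537473-71537722, minus strand: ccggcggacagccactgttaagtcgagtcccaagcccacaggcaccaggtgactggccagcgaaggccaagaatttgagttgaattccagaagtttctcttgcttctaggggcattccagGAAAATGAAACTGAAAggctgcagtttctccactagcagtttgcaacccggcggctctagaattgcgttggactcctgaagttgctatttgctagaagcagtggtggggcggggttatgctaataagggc
Trim30a, chr7:104465194-104465443, minus strand: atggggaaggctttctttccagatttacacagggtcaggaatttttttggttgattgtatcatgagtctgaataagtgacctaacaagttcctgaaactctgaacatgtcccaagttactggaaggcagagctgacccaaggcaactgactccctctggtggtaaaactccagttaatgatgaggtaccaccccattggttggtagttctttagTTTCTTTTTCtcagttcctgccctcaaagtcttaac
B2m, chr2:122147437-122147686, plus strand: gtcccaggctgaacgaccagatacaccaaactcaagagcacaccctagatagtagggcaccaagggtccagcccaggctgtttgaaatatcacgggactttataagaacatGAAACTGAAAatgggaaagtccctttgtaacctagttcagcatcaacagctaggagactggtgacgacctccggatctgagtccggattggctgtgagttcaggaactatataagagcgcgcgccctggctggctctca
Ifit3, chr19:34583279-34583528, plus strand: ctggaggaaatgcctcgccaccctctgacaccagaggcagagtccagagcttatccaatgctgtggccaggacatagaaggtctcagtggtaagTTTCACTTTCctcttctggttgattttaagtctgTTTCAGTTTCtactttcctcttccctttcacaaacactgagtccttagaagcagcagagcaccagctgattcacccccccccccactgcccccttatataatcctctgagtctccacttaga
Bst2 holds 2 overlapping matches and Ifit3 2 separate ones, while Trim30a and B2m hold 1 each, so the letters were present in called and uncalled genes alike. A match describes the sequence and does not show binding.

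Astrocyte genes rose in a narrow set. Gfap, the filament protein of reactive astrocytes, had 317, 334 and 444 FPKM in 5xFAD EV, 480, 404 and 354 in 5xFAD PBS and 115, 135 and 139 in wildtype samples (1.48, SE 0.16, adjusted p = 0.00145). Serpina3n, a secreted protease inhibitor, had 49.5, 51.1 and 65.7 FPKM in 5xFAD EV and 24.1, 24.4 and 29.2 in wildtype samples (1.08, SE 0.15, adjusted p = 0.00419). With C4b and Cxcl10 these were the 4 of 17 tested reactive astrocyte genes that were called, median 0.49. Vim, the filament vimentin, was at 47.3, 43.7 and 57.8 FPKM in 5xFAD EV and 28.3, 39.6 and 49.1 in wildtype samples (0.37, adjusted p = 0.617). Among 14 genes of astrocyte identity the water channel Aqp4 was called (0.56, adjusted p = 0.0388, in none of the fits without a sample), and the median was 0.02, with the glutamate transporter Slc1a2 at 0.06.

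Immediate early genes were the main group that fell. Of 25 tested, 9 were called lower and none higher, with a median of -0.54. The count was 4 without vesicle replicate 1 or wildtype replicate 2 or 3, and 5 without vesicle replicate 2. Fos, a subunit of the transcription factor AP-1, had 1.80, 2.84 and 3.21 FPKM in 5xFAD EV, 2.45, 2.71 and 4.17 in 5xFAD PBS and 7.79, 10.2 and 7.35 in wildtype samples (-1.54, SE 0.22, adjusted p = 0.0066). Arc, a synaptic protein that regulates glutamate receptor uptake, had 16.8, 19.8 and 24.4 FPKM in 5xFAD EV, 15.9, 17.2 and 21.2 in 5xFAD PBS and 43.5, 61.5 and 51.5 in wildtype samples (-1.34, SE 0.17, adjusted p = 0.00303). Nr4a1, a nuclear receptor, had 5.00, 5.87 and 6.72 FPKM in 5xFAD EV, 5.17, 4.63 and 5.90 in 5xFAD PBS and 12.3, 15.6 and 14.9 in wildtype samples (-1.22, SE 0.13, adjusted p = 0.00186). In all 3 genes the 5xFAD groups overlapped with each other and neither overlapped with wildtype.

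Egr4, a zinc finger transcription factor, fell by 0.75 on the log2 scale (adjusted p = 0.00467), and with Fos, Arc and Nr4a1 it was called in every fit without a sample. Egr1 (-0.98, adjusted p = 0.0403), Fosb (-0.86), Junb (-0.65), Dusp1 (-1.07, adjusted p = 0.0499) and Dusp6 (-0.51) were called in 1 to 3 of those 6 fits. Dusp1 and Dusp6 encode phosphatases that switch off MAP kinases. Npas4, a factor restricted to active neurons, had 0.574, 1.14 and 1.14 FPKM in 5xFAD EV and 1.80, 2.37 and 0.977 in wildtype samples (-0.59, adjusted p = 0.413). Bdnf, the neurotrophin, was at 0.04 and Homer1 at -0.07. Secreted proteins regulated by activity, a group drawn up after the values were seen, had 3 of 11 tested members called lower, and 1 without vesicle replicate 2 or wildtype replicate 1 or 3. Vgf, a neuropeptide precursor, had 29.6, 31.4 and 28.8 FPKM in 5xFAD EV, 27.8, 25.4 and 31.1 in 5xFAD PBS and 48.5, 47.4 and 48.6 in wildtype samples (-0.68, SE 0.08, adjusted p = 0.00303). Crhbp, which binds corticotropin-releasing hormone, had 12.5, 12.7 and 14.9 FPKM in 5xFAD EV and 21.6, 20.9 and 21.0 in wildtype samples (-0.65, adjusted p = 0.0199, called in 1 of the 6 fits without a sample). Cort, the interneuron peptide cortistatin, had 4.08, 3.76 and 3.82 FPKM in 5xFAD EV and 9.77, 7.49 and 7.92 in wildtype samples (-1.01, adjusted p = 0.0173, called in 3 of the 6 fits without a sample).

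Immediate early genes are driven in neurons in part through the cAMP response element, TGACGTCA, so their promoters were searched in the same windows. The full element lay in 2 of 19 immediate early genes with a window (10.5%), against 549 of all 27025 genes (2.03%). Its half-site, TGACG on either strand, which the full element contains, was added after the data were seen and lay in 15 of 19 (78.9%), against 6228 of all genes (23%). The 250 bases before the start are shown for Nr4a1 and Dusp1, both called lower, with half-sites in capitals and, in Dusp1, the full element.
Nr4a1, chr15:101266596-101266845, plus strand: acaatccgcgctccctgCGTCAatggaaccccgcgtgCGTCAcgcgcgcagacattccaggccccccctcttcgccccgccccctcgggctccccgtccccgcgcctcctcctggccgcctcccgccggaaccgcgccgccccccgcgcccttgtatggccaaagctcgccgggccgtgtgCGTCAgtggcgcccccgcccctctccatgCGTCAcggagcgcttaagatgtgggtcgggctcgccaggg
Dusp1, chr17:26508473-26508722, minus strand: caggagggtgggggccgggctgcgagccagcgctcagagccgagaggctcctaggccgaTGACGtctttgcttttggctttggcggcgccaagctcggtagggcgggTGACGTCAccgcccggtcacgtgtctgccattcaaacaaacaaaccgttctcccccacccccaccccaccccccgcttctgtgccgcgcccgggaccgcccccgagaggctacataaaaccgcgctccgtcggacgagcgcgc
Nr4a1 holds 4 half-sites, all written as CGTCA on this strand, and Dusp1 holds 1 half-site and 1 full element. The half-site was also held by 5 of 10 class I genes (50%), 3 of 17 type I interferon genes (17.6%) and 1 of 10 GTPases (10%).

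Genes of neuronal structure were near the wildtype level. None of 22 presynaptic and 26 postsynaptic genes was called, with medians of -0.03 and -0.02 and ranges of -0.32 to 0.20 and -0.37 to 0.43. Snap25, a fusion protein of synaptic vesicles, had 932, 1064 and 1316 FPKM in 5xFAD EV and 1156, 1205 and 979 in wildtype samples, and Camk2a, the kinase of excitatory synapses, had 644, 631 and 618 in 5xFAD EV and 627, 649 and 730 in wildtype samples. None of 20 hippocampal neuron genes was called (median -0.04), with C1ql3 at 0.19 and Neurod6 at -0.04. Of 15 interneuron genes only Cort was called, but 13 of 15 changes were below 0 with a median of -0.29, among them Sst, somatostatin, with 239, 251 and 268 FPKM in 5xFAD EV and 336, 313 and 411 in wildtype samples (-0.47, adjusted p = 0.0956) and Gad1, which makes GABA (-0.29, adjusted p = 0.211). Fezf2, a factor of deep layer projection neurons, was called at -0.60 (adjusted p = 0.049, in 1 of the 6 fits without a sample). Among 16 oligodendrocyte genes Mobp, a myelin protein, was called with 67.1, 63.9 and 65.7 FPKM in 5xFAD EV and 96.8, 95.1 and 86.1 in wildtype samples (-0.49, SE 0.07, adjusted p = 0.00764), and the list's median was -0.25. Only 1 of the 16 oligodendrocyte changes was above 0. Mobp was not called without wildtype replicate 2.

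Choroid plexus genes differed by the largest median of any list without a single call. All 16 were above 0, median 2.21, and Ttr, transthyretin, the main secreted protein of that epithelium, had 5532, 2207 and 178 FPKM in 5xFAD EV, 2532, 8684 and 2697 in 5xFAD PBS and 29.7, 76.5 and 159 in wildtype samples (4.17, SE 1.12, adjusted p = 0.126). Enpp2, autotaxin, had 868, 372 and 75.7 FPKM in 5xFAD EV, 432, 1060 and 454 in 5xFAD PBS and 55.7, 72.1 and 65.9 in wildtype samples (2.17, adjusted p = 0.239). Vesicle replicate 3 was close to the wildtype samples in both genes, and without it 15 of the 16 were called higher, with a median of 3.25. Summed over the list, 5 of the 6 5xFAD hippocampus samples had 2674 to 10063 FPKM, vesicle replicate 3 had 267 and wildtype samples had 93.6 to 239. The amount of choroid plexus in each dissection was not recorded in the labels, and its part in other results was not tested. Ependymal genes (8 tested), meningeal fibroblast genes (12) and haemoglobins (4) had no call and medians of 0.12, -0.14 and 1.04, and the ependymal median was 0.70 without vesicle replicate 3. Endothelial (13), mural (10) and border-associated macrophage genes (6) had no call either, with medians of -0.02, -0.01 and -0.05, and of 13 genes of neutrophils, monocytes and lymphocytes 3 reached the level for testing. Hbb-bs, a haemoglobin chain, had 18.1, 6.28 and 38.9 FPKM in 5xFAD EV and 1.39, 21.8 and 3.91 in wildtype samples, which overlapped.

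**Figure D5:**
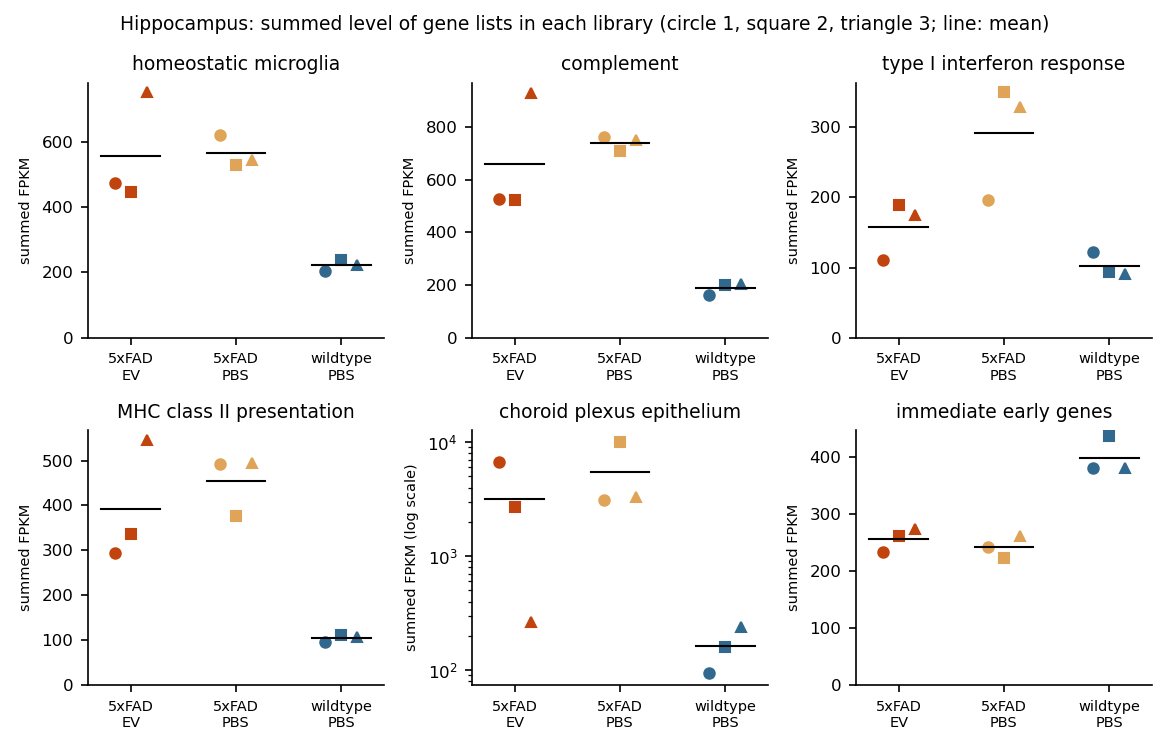
FPKM summed over the members of 6 gene lists in each hippocampus sample, in 5xFAD EV, 5xFAD PBS and wildtype from left to right, with symbols for replicates 1, 2 and 3 and a line at the mean; the choroid plexus panel has a log axis. Vesicle replicate 3 is the highest vesicle sample for homeostatic microglia (753) and complement (929) and the lowest for choroid plexus (267), and for immediate early genes the vesicle samples (234, 262 and 274) lie below the wildtype samples (380, 436 and 380).

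General cell functions gave no calls: 22 endoplasmic reticulum and heat shock genes had a median of -0.21, with the chaperone Hspa8 at -0.23, 18 antioxidant genes 0.05, with Sod1 at -0.10, 25 nuclear genes of oxidative phosphorylation -0.18, with Cox4i1 at -0.18, and 24 cytosolic ribosomal proteins -0.02. In that order, 4 of 22, 9 of 18, 1 of 25 and 10 of 24 changes were above 0, beside 6719 of all 13305 genes tested. Of 17 tested genes near Alzheimer risk loci 6 were called higher, all of them expressed by microglia: Cd33 (1.12), Spi1 (1.04), Abi3 (1.02), Inpp5d (0.96), Ms4a6d (0.87) and Plcg2 (0.74). The count was 2 without wildtype replicate 1 or 3 and 3 without wildtype replicate 2. Cd33, an inhibitory receptor for sialic acid, had 3.11, 3.15 and 3.17 FPKM in 5xFAD EV and 0.983, 1.43 and 1.13 in wildtype samples. Bin1, with 82.0, 76.8 and 85.4 FPKM in 5xFAD EV and 82.1, 87.8 and 87.5 in wildtype samples, was at -0.08, and Clu, clusterin, at 0.34 (adjusted p = 0.384).

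A few genes called lower against wildtype in 5xFAD EV had no call in 5xFAD PBS against wildtype, and none of them was called in the direct test between the 5xFAD groups. They include Dusp1 and Fezf2, given above, and Fv1, a restriction factor for retroviruses (-0.77, called in none of the 6 fits without a sample). In 5xFAD PBS against wildtype, limma also put these genes below 0 without a call. Dusp1 was at -0.86 (adjusted p = 0.0711), Fezf2 at -0.53 (adjusted p = 0.051) and Fv1 at -0.51 (adjusted p = 0.124). Stbd1 and Atf5 are named after their values were seen. Cfp, properdin, which stabilises the alternative complement pathway, had 0.431, 0.497 and 0.532 FPKM in 5xFAD EV, 1.11, 1.16 and 0.817 in 5xFAD PBS and 1.05, 1.005 and 0.989 in wildtype samples. The vesicle samples were below all others (-0.62, SE 0.13, adjusted p = 0.037, called in none of the 6 fits without a sample), 5xFAD PBS against wildtype gave 0.01 and 5xFAD EV against 5xFAD PBS gave -0.63 (SE 0.13, adjusted p = 0.867). Stbd1, a glycogen-binding protein, had 0.385, 0.218 and 0.324 FPKM in 5xFAD EV, 0.647, 0.911 and 0.674 in 5xFAD PBS and 0.819, 0.955 and 1.001 in wildtype samples (-0.82, adjusted p = 0.0148). Atf5, a stress-responsive transcription factor, had 10.1, 11.2 and 11.1 FPKM in 5xFAD EV, 13.6, 13.7 and 11.9 in 5xFAD PBS and 13.5, 15.5 and 16.0 in wildtype samples (-0.45, adjusted p = 0.0443, called in 1 of the 6 fits without a sample). Other genes called lower were Banp, a methylation-sensitive DNA-binding factor (-0.67), and, named after their values were seen, Etv5 (-0.57), Gadd45b (-0.43), Bcat1 (-0.37) and St8sia5 (-0.35). Banp and Etv5 were each called in 2 of the 6 fits without a sample, and Gadd45b, Bcat1 and St8sia5 in none.

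In prefrontal cortex, 5xFAD EV against wildtype, fitted on all 18 samples over 13574 genes, called 222 genes (1.64%) higher and 34 (0.25%) lower. Disease-associated microglia genes had a median of 1.37 with 23 of 31 called in hippocampus, against 0.94 with 18 called in prefrontal cortex. The medians were 0.89 in hippocampus and 0.44 in prefrontal cortex for MHC class I genes (5 and 1 of 12 called) and 0.54 in hippocampus and 0.27 in prefrontal cortex for type I interferon genes (2 and 0 of 21 called). Immediate early genes had 9 of 25 called lower with a median of -0.54 in hippocampus, against 17 with -1.01 in prefrontal cortex. Arc changed by -1.34 in hippocampus and by -2.27 in prefrontal cortex, Cst7 by 6.97 in hippocampus and 6.03 in prefrontal cortex, and Thy1 by 1.49 in hippocampus and 0.99 in prefrontal cortex. The difference between the tissues was tested for every gene. At an unadjusted p under 0.05 limma had 561 genes, a smaller share than the 0.05 that no difference would give. No gene was called, with a smallest adjusted p of 0.975 in limma. None was called either with the replicate number within each group as a block across the tissues, so none of these gaps was shown to be particular to a tissue.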

How the data were processed

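RNA-seq libraries of total RNA (VAHTS Universal V5 kit, NovaSeq, per the labels' protocols) covered prefrontal cortex and hippocampus. The deposited table holds FPKM per gene, scaled by the authors by gene length and library size. Per the submitters' processing notes, the pipeline involved fastp, HISAT2, HTSeq and the mouse build GRCm39. Versions, annotation and strand use are not given in any source used here, so overlapping genes and near-identical copies may share reads.

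Groups came from sample titles. The values of 18682 of the 18683 genes (99.99%) were whole multiples of a step per gene after scaling each library, within 0.0001 of a read or, for high values, a relative tolerance of 1e-06. The multiples were taken as reads, and a single read stood for 0.00841 to 0.0117 FPKM at the median gene length. Tests ran on log2(FPKM + 0.5), which understates changes of low genes, with limma 3.58.1 in R 4.3.3 (eBayes with trend, two-sided, all 9 hippocampus libraries in the fit, Benjamini-Hochberg over the genes tested). The fit was tested on simulated reads, drawn independently with the same spread for every gene. Shifts shared by many genes of a library, as in choroid plexus genes, were not simulated. The libraries of a group differed beyond sampling noise in every pair (chi-square per degree of freedom 10.4 to 78.7). Tissues were compared in a fit of all 18 libraries. Tables and motif searches used Python 3.11.15 with pandas 2.3.3.

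The comparison and its 39 gene lists were chosen with earlier results of these data known, and 6 more lists were drawn up after the values were seen. Named genes were App, Thy1 and Cd36, the 15 largest rises and 15 largest falls among called genes whose groups did not overlap (higher group averaging 1 FPKM or more, unnamed gene models and choroid plexus, haemoglobin and meningeal genes left out), the 4 called members of each list with the largest change, or its 2 most abundant where none was called, and any genes called between 5xFAD groups or between tissues, of which there were none. Other list members were named after their values were seen, and a few genes that the rule names are not reported here. Correlations of deviations between same-numbered hippocampus libraries were 0.0487, -0.2 and 0.133 for 5xFAD EV with wildtype. Over all pairs of groups they ran from -0.409 to 0.406, so pairing by replicate number was neither shown nor excluded. Alternatives changed the pseudocount, the filter, the scaling, the test, the libraries fitted and the replicate block.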

Additional observations from a re-analysis of the deposited data

How the results depend on the processing

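The 280 genes called in 5xFAD EV against wildtype numbered 304 with a pseudocount of 0.1, 263 with 1, 242 with no filter, 266 with a filter at 1 FPKM, 285 with median ratio scaling, 296 with a common sum, 250 with voom on the recovered reads and 233 with only the 6 libraries compared. Leaving out 1 of the 9 hippocampus libraries gave 159 to 292 calls, lowest without a wildtype library, and no called gene changed sign without a vesicle or wildtype library. For 5xFAD PBS against wildtype (611 calls) the range was 320 to 785. For 5xFAD EV against 5xFAD PBS it was 0 to 1, the 1 being Saa3 without 5xFAD PBS replicate 3 (adjusted p = 0.00164). The difference between tissues had 0 calls in every alternative run. Between hippocampus groups, pairing by replicate number was neither shown nor excluded. A fit with that number as a block gave 236 calls for 5xFAD EV against wildtype and 503 for 5xFAD PBS against wildtype. It gave 0 both for 5xFAD EV against 5xFAD PBS and for the tissues. Between tissues, libraries of the same group and number had correlations of deviations of -0.275 to 0.495. Summed haemoglobins were highest in replicate 2 of wildtype in both tissues (34.6 FPKM in hippocampus and 69.4 in prefrontal cortex), and the labels do not say whether a number is 1 mouse. A block on the number within each group, chosen after seeing the data, called 0 genes for the difference between tissues. It had 667 genes at an unadjusted p under 0.05, also a smaller share than the 0.05 that no difference would give. Of the 75 named genes that were called, 50 to 72 were called without 1 library and 58 with no filter, and no named gene reversed in any of the 18 alternatives. Near-identical genes of the H2, Ifit, Oas and haemoglobin families are uncertain between members. Genes under 0.5 FPKM in more than 6 of the 9 hippocampus libraries were not tested, which says nothing of their absence.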
